A study of Mus musculus with 2 samples.

Results

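Among sorted mouse lung group 2 innate lymphoid cells (ILC2s), a minority of cells held transcripts of Il13 with none of Il5, although these cytokines are commonly made by the same cell. The cells described here, termed Il13-only cells, were chosen by the counts themselves: at least 1 unique molecular identifier (UMI, a tag that marks 1 captured transcript) of Il13 and 0 UMIs of Il5 and of Il2, in barcodes where 500 genes or more were detected and mitochondrial genes took 10% of UMIs or less. They numbered 845 of 15481 kept cells. Because cells were selected on Il13, Il5 and Il2, the levels of these 3 genes are given as a description.

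ILC2s reside in tissues, lack rearranged antigen receptors and respond to the alarmins IL-33, IL-25 and TSLP and to neuropeptides. IL-13 drives mucus production, smooth muscle contraction and alternative macrophage activation, whereas IL-5 supports eosinophils. The genes for IL-13, IL-4 and IL-5 lie next to each other in the type 2 cytokine locus around Rad50, and GATA3 and NFAT are known to act on them.

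One library was made from WT mice and 1 from Pac1-/- mice, which lack phosphatase of activated cells 1 (PAC1, encoded by Dusp2) in the germline. The Pac1-/- mice were on a C57BL/6J background, and the study as a whole used matched mice of either sex aged 6 to 8 weeks; the sexes pooled here are not given in the sources used here. Lung cells were sorted as live, lineage-negative and CD90.2+ Sca-1+ ST2+ (encoded by Thy1, Ly6a and Il1rl1). Cells of several mice were pooled per genotype with no map from cells to mice, and no label says whether the animals had been challenged. With 1 library per genotype there is no replicate error, so no p-values are given, all intervals (95%) cover counting error only, and genotype cannot be told apart from the library.

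The libraries held 56182065 (WT) and 60283285 (Pac1-/-) UMIs, and 8394 of 10866 and 7087 of 9495 barcodes were kept. Dusp2 checked the labels: Il13-only cells held 63 UMIs of it in WT and 1 UMI in Pac1-/-, and all other kept cells held 1356 and 4 UMIs. The libraries shared 29 barcodes before the filter, of which 3 belonged to Il13-only cells and 0 were Il13-only in both. No doublet caller was run, and 49 WT (10.4%) and 44 Pac1-/- (11.7%) of the Il13-only cells held over 2 times the median UMIs of their library.

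The type 2 locus occupies a short stretch of chromosome 11 in GRCm38 (GENCODE vM21). Il13 lies at chr11:53631324-53634702 and Il4 at chr11:53602982-53618669, both on the minus strand, and Rad50 at chr11:53649519-53707319 separates them from Il5, on the plus strand at chr11:53720794-53725106. The sequences below are the 250 bases before the start site of each cytokine gene (RefSeq, GRCm38.p6), 5′ to 3′, shown because these cells are set apart by which of these neighbours they express. They cover chr11:53634703-53634952 (minus strand, Il13), chr11:53618666-53618915 (minus strand, Il4, at the first of 2 RefSeq start sites) and chr11:53720544-53720793 (plus strand, Il5). Capitals mark GATA words (AGATAA or AGATAG or TGATAA or TGATAG) and the NFAT core GGAAA on either strand.
Il13: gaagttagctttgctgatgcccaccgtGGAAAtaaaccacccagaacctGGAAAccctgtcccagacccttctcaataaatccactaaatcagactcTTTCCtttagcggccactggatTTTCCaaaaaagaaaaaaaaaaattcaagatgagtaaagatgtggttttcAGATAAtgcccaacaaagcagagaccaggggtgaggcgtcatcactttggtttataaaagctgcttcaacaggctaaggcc
Il4: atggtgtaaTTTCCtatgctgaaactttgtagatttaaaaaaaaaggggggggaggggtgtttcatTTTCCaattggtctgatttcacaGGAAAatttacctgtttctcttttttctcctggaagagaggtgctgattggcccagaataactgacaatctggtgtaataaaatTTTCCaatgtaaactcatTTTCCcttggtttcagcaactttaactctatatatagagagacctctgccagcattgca
Il5: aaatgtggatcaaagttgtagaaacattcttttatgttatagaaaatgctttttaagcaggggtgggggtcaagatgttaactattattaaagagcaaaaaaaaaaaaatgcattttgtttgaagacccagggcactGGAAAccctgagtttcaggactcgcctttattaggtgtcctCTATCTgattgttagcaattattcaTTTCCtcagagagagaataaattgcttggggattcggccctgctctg
The Il13 window held 1 GATA word and 4 GGAAA matches, the Il4 window 0 and 5, and the Il5 window 1 and 2. At the other Il4 start site the window (chr11:53617339-53617588, not shown) held 1 and 0. A GATA word was present in 26.5% and GGAAA in 55.7% of 32536 promoter windows of the same length, so these matches are common and are given as a description. The AP-1 word TGANTCA, found in 6.73% of windows, and the cAMP response element TGACGTCA, found in 1.56%, each had 0 matches in the 3 windows shown.

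Il13-only cells made up 5.60% of kept WT cells (470 of 8394, Clopper-Pearson interval 5.12 to 6.11) and 5.29% of kept Pac1-/- cells (375 of 7087, 4.78 to 5.84). Whether a cell falls into the class depends on how deeply it was read, since a single missed UMI of Il5 brings a cell in. Thinning every cell to 2000 UMIs before the rule was applied gave 6.39% in WT (478 of 7480 cells, 914 shallower cells left out) and 4.87% in Pac1-/- (315 of 6470, 617 left out). The median depth was 3990.5 UMIs in WT and 5440 in Pac1-/- Il13-only cells, against 6939 and 8115 in cells that held both Il13 and Il5 without Il2 (1235 and 585 cells, termed double-positive).

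Most of the Il13-only cells held little Il13. One UMI was found in 269 WT (57.2%) and 234 Pac1-/- cells (62.4%), 2 UMIs in 75 and 54, 3 to 5 in 75 and 48, and 6 or more in 51 and 39. The highest cell held 23 UMIs in WT and 61 in Pac1-/-. Summed over the cells, Il13 reached 526 CPM (a gene's UMIs scaled to the total UMIs of the summed cells) in WT (496 to 556) and 455 CPM in Pac1-/- (429 to 483), beside 527 and 607 CPM in double-positive cells. The members just inside the rule were thus cells with 1 UMI of Il13, and those just outside it on the Il5 side were the 278 WT and 138 Pac1-/- cells with Il13 and exactly 1 UMI of Il5.

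The share of Il13+ Il2- cells in which Il5 was not detected was lower at each higher step of Il13 in both libraries. It was 37.5% in WT and 54.2% in Pac1-/- cells with 1 Il13 UMI, 25.6% and 43.2% with 2, 21.1% and 28.1% with 3 to 5, and 15.1% and 16.8% with 6 or more. Over all Il13+ Il2- cells the share was 27.6% in WT (25.5 to 29.8) and 39.1% in Pac1-/- (36.0 to 42.2), and after thinning 42.4% and 53.8%. Depth differed between the steps, with medians in the cells that held Il5 of 5739 UMIs at 1 and 7595 at 6 or more Il13 UMIs in WT, and 7443 and 8251 in Pac1-/-. With every cell thinned to 2000 UMIs, an alternative chosen after the data were seen, the share was 47.0% and 62.7% at 1 Il13 UMI, 39.7% and 53.8% at 2 and 33.3% and 37.1% at 3 or more. All these shares rest on the genes of the rule and are a description.

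**Figure D1:**
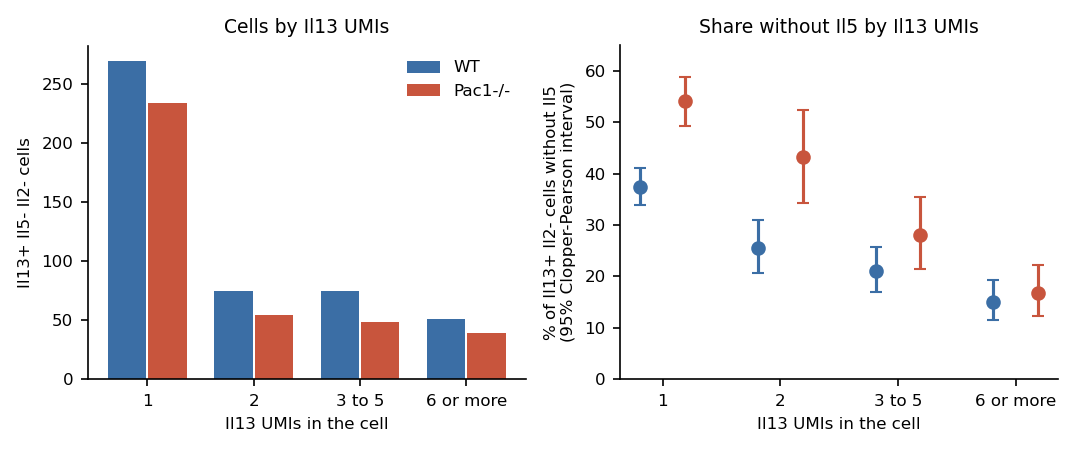
Left, number of Il13-only cells (bars) by Il13 UMIs in the cell, in WT and Pac1-/-; right, percentage of Il13+ Il2- cells without an Il5 UMI at each Il13 level, with 95% Clopper-Pearson intervals. Cells with 1 Il13 UMI form the tallest bars (269 and 234), and the share without Il5 ends at 15.1% and 16.8% in cells with 6 or more.

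Free RNA in droplets can put single UMIs into cells that do not express a gene. B cells should lack Il13, and the few kept cells with at least 2 B cell markers are termed B-like. The marker set was not the 8-gene B cell list summed below. By that list 10 Il13-only cells, with Il13 by the rule, and 17 matched cells in Pac1-/- held 2 or more genes. The shares given here thus depend on the markers. By the set used, 4 of 10 B-like cells in WT (12.2% to 73.8%) and 3 of 23 in Pac1-/- (2.78% to 33.6%) held an Il13 UMI. In all kept cells the share was 28.8% and 21.4%. Median depths were 4297.5 and 4652 UMIs in B-like cells against 4186.5 and 5577 in all kept cells. Summed Il13 was at 329.6 CPM (245 to 433) in these WT cells against 190.3 CPM in all kept cells, and at 17.6 CPM (4.79 to 45.0) against 149 CPM in Pac1-/-. The WT level came from 4 cells, whereas the 1 WT cell with Il4 gave 6.46 CPM of Il4. It thus stood for more than single Il13 UMIs per cell and is no measure of stray UMIs. In such sums the deepest cells weigh most, and the median depth does not describe them. The same cells held Gata3 in 50% and 43.5% and Il1rl1 in 50% and 52.2%, and the source of these UMIs in such cells was not tested. How many of the Il13-only cells at 1 UMI carry it from free RNA was not tested.

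The labelled cell type was checked against its markers, which these cells held. Gata3, the master factor of type 2 lymphocytes, was detected in 89.8% of WT and 92.5% of Pac1-/- Il13-only cells, Il1rl1 (the IL-33 receptor ST2) in 92.1% and 91.2%, Rora in 94.7% and 94.9%, Il7r in 88.3% and 93.9% and Id2 in 83.0% and 89.6%. The other gate genes were seen in fewer cells, Thy1 in 41.7% and 45.3% and Ly6a in 32.8% and 57.6%. Cd4 and Cd8a of T cells, Ms4a1 of B cells, Mcpt8, Cma1 and Mcpt4 of basophils and mast cells, Csf1r, Itgam and S100a8 of myeloid cells, and Ncr1 and Klrb1c of NK cells were at 0 in both libraries. Not all genes of these lists were. Ighm of the B cell list was detected in 18.1% and 29.6% of Il13-only cells, and Cst3 of the myeloid list in 36.6% and 56%. At least 2 genes of the B cell list were held by 0.638% and 2.67% of Il13-only cells, beside 0.284% and 1.51% of depth-matched cells. Other genes of the T cell and mast cell lists were widely detected, Trbc1 in 51.7% and 69.3%, Trbc2 in 58.9% and 70.1%, Cd3g in 32.1% and 26.7% and Kit in 65.5% and 50.7% of Il13-only cells, and 233 WT (49.6%) and 230 Pac1-/- cells (61.3%) held 2 or more genes of the T cell list, beside 48.1% and 61.4% of depth-matched cells.

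Of 9 summed lists of other cell types, 4 stood apart from depth-matched cells in at least 1 library. The 10 T cell genes reached 716 CPM in Il13-only and 692 CPM in matched cells in WT, and 1013 and 972 CPM in Pac1-/-. The 9 NK and ILC1 genes reached 17.4 against 7.71 CPM and 37.3 against 15.3 CPM. In Il13-only cells 7 of these 9 were at 0 in WT but 2, Ncr1 and Klrb1c, in Pac1-/-. At least 2 of them were held by 0% of Il13-only and 0.0709% of matched cells in WT, and by 1.6% and 0.533% in Pac1-/-. Klrk1 and Nkg7 were called higher with at least 20 UMIs per gene and against all other cells standardised by depth. The 8 stromal genes were at 3.11 against 23.1 CPM in WT and 26.5 against 40.6 CPM in Pac1-/-, and the 6 endothelial genes at 28.9 against 47.9 CPM and 43.9 against 40.2 CPM. The 5 haemoglobin and erythroid genes stood apart in both libraries, as did the NK and ILC1 and the stromal genes. The haemoglobin and erythroid genes were at 43.2 against 26.1 CPM in WT and 2231 against 87.5 CPM in Pac1-/-. There 1 Pac1-/- cell held 1176 of the 1316 Hba-a1 UMIs. The part of these genes in the results below was not tested, apart from the values given without single cells.

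Il4 had the largest ratio of the genes called higher in Il13-only cells than in other cells of the same depth, apart from Hba-a1 in Pac1-/-. Each Il13-only cell was set beside 3 other kept cells of its library nearest in total UMIs (1410 and 1125 cells). Of these, 40.7% in WT and 48% in Pac1-/- held none of the 3 cytokines and 28.3% and 19.7% held Il5 alone. Double-positive cells made up 14.5% and 9.42% of them and Il2+ cells 16.5% and 22.8%, so their makeup differed between the libraries. A gene was called when the ratio, relative to the median gene, exceeded 1.5-fold in the same direction in both libraries with intervals that excluded the median gene. Of 8273 genes with at least 50 UMIs in each library, 8 (0.0967%) were called higher and 10 (0.121%) lower.

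Il4 encodes the cytokine that shares a receptor chain with IL-13. It reached 56.1 CPM (126 UMIs) in WT Il13-only cells against 18.2 CPM in matched cells, and 55.9 CPM (135 UMIs) against 18.5 CPM in Pac1-/-. The ratio was 3.07-fold in WT and 3.08-fold in Pac1-/-, log2 1.62 in both (1.25 to 1.99 and 1.27 to 1.98). Leaving out the highest cell of each group gave log2 1.47 and 1.39. In Pac1-/- the value fell to log2 0.71 (-0.12 to 1.51) when cells were thinned to 2000 UMIs before the rule was applied, and the call was lost there.

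The Il4 UMIs were unevenly spread. They came from 65 WT (13.8%) and 57 Pac1-/- (15.2%) Il13-only cells, and the 10 and 15 cells with 3 or more held 46.8% and 57.8% of them. Cells with 3 or more Il4 UMIs made up 2.13% (1.02 to 3.88) and 4% (2.26 to 6.51) of Il13-only cells. The share was 1.46% and 1.54% in double-positive and 2.03% and 1.88% in Il2+ cells, both of which were deeper. Of the Il4+ cells, 63 of 65 and 56 of 57 held Gata3, 62 and 51 held Il1rl1, 4 and 1 held a UMI of Trac, Cd3d, Cd4 or Cd8a, and 3 and 5 one of Mcpt8, Cpa3, Ms4a2 or Fcer1a. The more widely detected genes of those lists, such as Trbc2 and Kit, were not counted here. In the B-like cells Il4 was seen in 1 of 10 and 2 of 23.

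Over the cytokine classes, Il4 had its highest level in the Il13-only cells of both libraries. It was at 16.1 and 15.8 CPM in cells without any of the 3 cytokines, 13.8 and 14.04 CPM in cells with Il5 alone, 25.3 and 23.6 CPM in double-positive cells and 24.8 and 18.0 CPM in Il2+ cells (WT and Pac1-/-). The share of cells with Il4 at 2000 UMIs was 7.38% in WT Il13-only cells (5.07 to 10.3) against 4.11% in double-positive cells. In Pac1-/- these shares were 5.95% (3.67 to 9.04) and 6.54% (4.64 to 8.90), the opposite order to the CPM, so no order is read from the shares there.

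**Figure D2:**
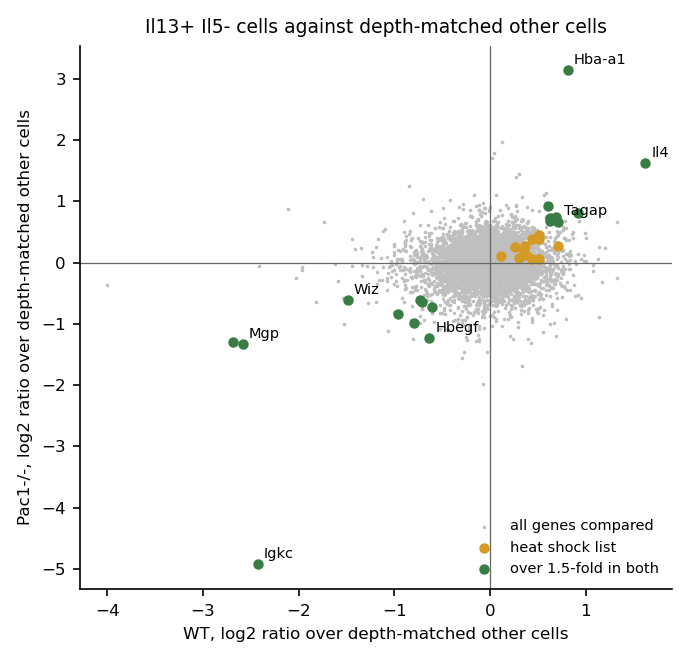
Each point is a gene, with its log2 ratio of Il13-only over depth-matched other cells (0, the median gene) in WT on the x axis and Pac1-/- on the y axis; green, over 1.5-fold in both; orange, heat shock list. Il4 lies at 1.62 on both axes, and all 12 heat shock genes lie above 0 on both; a gene at 0 UMIs (Inmt in WT cells) is drawn at the bound set by 3 UMIs.

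The other genes called higher had smaller ratios. Tagap, an activation-induced GTPase-activating protein, was at 66.7 against 40.9 CPM in WT and 36.0 against 23.1 CPM in Pac1-/- (log2 0.71 and 0.67). Anxa2, a membrane-binding annexin, was at log2 0.62 and 0.73, and Pmaip1, which encodes the pro-apoptotic protein NOXA, at 0.62 and 0.67. Dcxr, Smim3 and Adi1 were at 0.91 and 0.80, 0.69 and 0.75, and 0.60 and 0.93, and Adi1 turned to -0.98 in WT when cells were thinned to 2000 UMIs. Apart from Il4, Tagap and Hba-a1, each gene called higher was called in 3 to 7 of 13 alternatives. Hba-a1 was at 0.81 and 3.14, and in Pac1-/- rested on the single cell given above. Without the highest cell of each gene, an alternative chosen after the data were seen, Il4, Tagap and Dcxr were the 3 genes still called higher. Anxa2 was then at 0.52 and 0.76, Pmaip1 at 0.58 and 0.69, Smim3 at 0.67 and 0.57 and Adi1 at 0.57 and 0.82, each short of 1.5-fold in 1 library.

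Of the genes called lower, several are products of other cells. Igkc, the immunoglobulin light chain constant region, was at log2 -2.43 and -4.93 (6 and 1 UMIs in Il13-only cells), Mgp, a matrix protein, at -2.58 and -1.33, and Inmt, an enzyme abundant in lung stroma, held 0 UMIs in WT cells and was at -1.29 in Pac1-/-. These 3 calls were lost without the highest cell of each gene, where Inmt was at -0.12 in WT and too few UMIs of Igkc and Mgp remained for a call. The other 7 genes called lower were still called. With 1 matched cell, Mgp was at 2.03 in Pac1-/-, the opposite direction. Among genes that ILC2s can express, Hbegf, an EGF-family growth factor, was at 20.5 against 31.9 CPM and 9.94 against 23.9 CPM (-0.64 and -1.24). Vhl, which targets hypoxia-inducible factors for degradation, was at -0.96 and -0.84, Cystm1 at -0.79 and -0.99, Gabarapl1, an autophagy protein, at -0.61 and -0.72, and Wiz, Ccdc32 and Cdc42bpa between -1.49 and -0.60. Each gene called lower was called in 4 to 7 of 13 alternatives, and 0 of them after thinning, where Cystm1 was at 0.52 and Gabarapl1 at 0.09 in WT and Ccdc32 at 0.14 in Pac1-/-. Against all other cells standardised by depth Hbegf was at 0.20 in WT.

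Heat shock genes, which encode chaperones and are commonly induced when tissue is dissociated, lay above the median gene. All 12 listed genes were above it in both libraries, where 25.9% of all genes tested were, and the list median was log2 0.41 in WT and 0.21 in Pac1-/-. None of the 12 passed 1.5-fold in both. Over 13 alternatives 9 to 12 were above it in both libraries, with 9 and 1 below after thinning to 2000 UMIs. Hspa1a was at 691 against 483 CPM in WT and 1263 against 983 CPM in Pac1-/- (0.52 and 0.39), Hsph1 at 0.51 and 0.45, Dnajb1 at 0.44 and 0.39, and Hsp90aa1 at 0.37 and 0.28. After thinning, Hsph1 was at 0.03 in WT and -0.22 in Pac1-/-, and Hspa1a at 0.46 and 0.02. Whether handling of the cells has a part in this was not tested.

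Immediate-early and NFAT or NF-kB genes, which can mark recent stimulation, showed small shifts against matched cells. Of 25 immediate-early genes 18 were above the median gene in both libraries and 0 below it (median 0.14 and 0.16), with Egr1 at 0.42 and 0.24 and Atf3 at 0.09 and 0.12. Of 20 NFAT and NF-kB genes 11 were above and 0 below (0.05 and 0.20), with Nfkbid at 0.21 and 0.30 and Traf1 at 0.21 and 0.28. None was called in either list, and 25.6% of all genes were below the median gene in both libraries. With 1 matched cell, and as counted, 10 NFAT and NF-kB genes were above and 2 below, and after thinning to 2000 UMIs 14 and 3. The immediate-early genes had 0 below in these settings. Lung tissue was digested before the sort, and whether handling of the cells has a part in these shifts was not tested.

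Several other effector genes of ILC2s did not pass 1.5-fold against matched cells. Areg, a tissue repair growth factor, was at log2 0.21 and 0.26, Csf2 (GM-CSF) at -0.13 and 0.15 and Klrg1 at 0.05 and 0.20. Calca, which encodes the neuropeptide CGRP, was at 373 against 507 CPM and 288 against 342 CPM (-0.44 and -0.22), Ramp3, a subunit of calcitonin family receptors, at -0.46 and -0.38, and Gata3 at -0.14 and -0.06. Directions turned for some of these under other settings. With at least 2 Il13 UMIs, Calca was at 0.01 in WT and 0.49 in Pac1-/-, Ramp3 at 0.26 in Pac1-/- and Gata3 at 0.04 and 0.03, and after thinning Csf2 was at 0.25 and 0.55. Il9 held 0 UMIs in WT and 1 UMI in Pac1-/- cells, and Il6 16 and 68 UMIs, of which 1 Pac1-/- cell held 45. Of 15 ILC2 identity genes 5 were above and 5 below in both libraries.

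Against double-positive cells, which differ from the Il13-only cells by Il5, many more genes differed, and most were lower. With 1 matched cell each, 52 of 6296 genes (0.826%) were called higher and 187 (2.97%) lower. The median depth of the matched cells was 3993 UMIs in WT but 6292 in Pac1-/-, where too few shallow double-positive cells existed. Keeping the 436 WT and 294 Pac1-/- pairs within 10% in depth, an alternative chosen after the data were seen, called 51 higher and 166 lower, of which 35 and 160 were among those above.

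Several genes of signalling peptides and receptors were lower than in double-positive cells. Calca was at 373 against 929 CPM in WT and 288 against 843 CPM in Pac1-/- (log2 -1.43 and -1.69), and Ramp3 at -1.38 and -1.69. Tnfrsf9, the costimulatory receptor 4-1BB, was at 10.7 against 40.4 CPM and 9.11 against 34.6 CPM (-2.03 and -2.06). Il2ra and Il2rb, the IL-2 receptor chains, were at -0.73 and -0.89 and at -1.03 and -1.61, Icos at -0.80 and -1.22, Cxcr6, a chemokine receptor of tissue lymphocytes, at -0.83 and -0.99, and Gpr65, a proton-sensing receptor, at -0.79 and -1.14. The list of neural and lipid receptors did not lie to one side, with 4 of 14 above the median gene and 4 below it in both libraries, and Calcrl was among those above.

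The transcription factor genes Gata3, Rora, Crem and Nr4a3 and the secreted products Csf2 and Cxcl3 were also lower than in double-positive cells. Gata3 was at 1037 against 1454 CPM in WT and 962 against 1451 CPM in Pac1-/- (log2 -0.60 and -0.73), Rora at -0.71 and -0.91, Crem, a cAMP-responsive factor, at -0.93 and -1.54, and Nr4a3, an orphan nuclear receptor induced on activation, at -0.86 and -0.87. Csf2 was at 958 against 1496 CPM and 1639 against 2534 CPM (-0.76 and -0.77), and the chemokine gene Cxcl3 at -1.35 and -1.55. The largest differences also included Zfp503 (-2.13 in both), Pak1 (-1.75 and -1.69), Akap12, a scaffold of protein kinase A (-1.57 and -2.30), and Tubb6 (-1.58 and -1.55).

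By list, 8 of 8 tested CGRP response genes named by the study were below the median gene in both libraries, where 34.9% of all genes were, and 7 were called lower (medians -0.86 and -1.49), where 2.97% of all genes were. Of 15 other cytokines and growth factors 6 were above and 5 below, with 2 called each way. Of 19 NFAT and NF-kB genes 1 was above and 12 below, with 2 called lower. Of 21 ILC2 transcription factors 16 were below and 7 called lower, of 18 alarmin and cytokine receptors 13 and 6, of 14 cAMP target genes 12 and 3, of 6 chemokines 4 and 3, and of 17 ribosome biogenesis genes 13 and 2. Some genes are in more than 1 list, such as Crem and Pde4d in the CGRP and cAMP lists, so these counts are not separate results.

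A smaller set was higher than in double-positive cells. Hspb1, a small heat shock protein, was at 23.6 against 4.39 CPM and 31.1 against 2.26 CPM (log2 2.31 and 3.64). Its UMIs came from 10 WT and 13 Pac1-/- Il13-only cells, and single cells held 18 of 53 and 32 of 75 of them. Hspa1a was at log2 0.70 and 0.86 and Hsph1 at 0.75 and 0.81, and 9 of 11 heat shock genes were above the median gene in both libraries, where 34.8% of all genes were. Egr1 was at 288 against 155 CPM and 214 against 97.4 CPM. The immediate-early list did not lie to one side, with 10 of 24 genes above the median gene and 12 below it in both libraries, and 1 called each way. Il4 was at 56.1 against 32.0 CPM in WT and 55.9 against 32.0 CPM in Pac1-/- (0.69 and 0.67), and without the highest cells it was at 0.66 and 0.43 and no longer called. Tchp, Bet1 and Tmem242 were also called higher. Without the highest cell of each gene 50 genes were called higher and 189 lower, of which 43 and 181 were among those above; too few UMIs of Hspb1, Bet1 and Tmem242 remained for a call.

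By Il5 UMIs, a count that the rule uses, the genes lower than in double-positive cells are described as follows. Of the 187 genes called lower, 169 could be compared with cells that held Il13 and exactly 1 Il5 UMI, and their median log2 ratio was -0.12 in WT and -0.16 in Pac1-/-, with 8 and 18 past 1.5-fold. Against cells with 2 or more Il5 UMIs (957 and 447 cells) the median was -0.69 and -0.74, with 139 and 143 past it. These groups were not matched in depth. Cells with 2 or more Il5 UMIs make up most of the double-positive cells on which the genes were selected, so the larger ratio to them follows in large part from the selection and is no finding.

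Values of single genes are given by the same steps. Gata3 was at 1037, 1089 and 1478 CPM in WT cells with 0, 1 and 2 or more Il5 UMIs and at 962, 1041 and 1405 CPM in Pac1-/-. Calca was at 373, 359.8 and 760.2 CPM and at 288, 335 and 773 CPM, and Crem at 388, 388 and 693 CPM and at 207, 239 and 493 CPM. Il4, one of the genes called higher, was at 56.1, 26.7 and 25.1 CPM in WT and 55.9, 26.5 and 22.96 CPM in Pac1-/-. The groups at each step differ in depth and Il4 was among the genes selected, so these values too are a description.

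**Figure D3:**
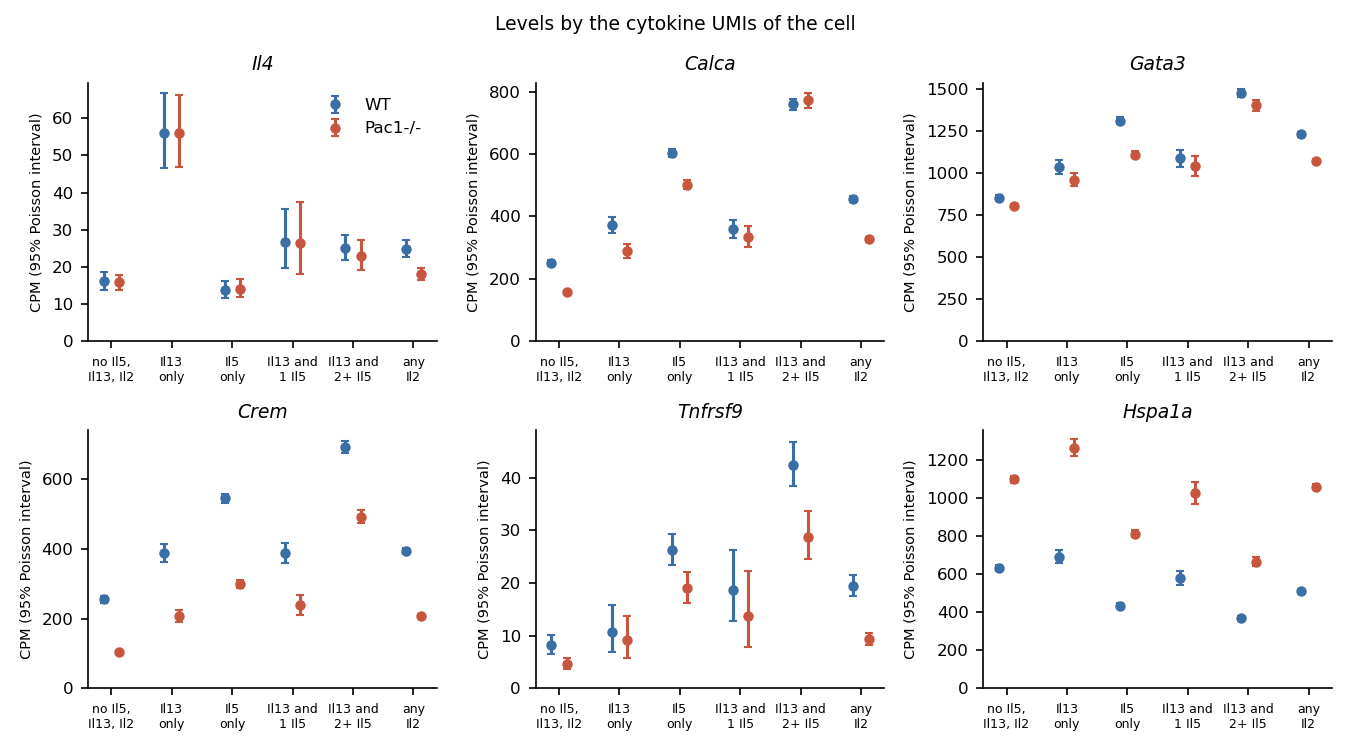
CPM with 95% Poisson intervals of 6 genes (panels) in cells grouped by their cytokine UMIs (x axis), in WT and Pac1-/-; Il5, Il13 and 2+ denote UMIs of the named cytokine genes. Il4 is highest in Il13-only cells (56.1 and 55.9 CPM), whereas Calca, Gata3, Crem and Tnfrsf9 are highest in cells with Il13 and 2 or more Il5 UMIs.

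Against cells with Il5 alone, fewer genes differed. At matched depth (median 3991 and 5448 UMIs), 9 of 6442 genes (0.14%) were called higher and 15 (0.233%) lower. Il4 was at 56.1 against 10.7 CPM in WT and 55.9 against 18.6 CPM in Pac1-/- (log2 2.37 and 1.58). Tnf was at 136 against 82.8 CPM and 151 against 90.7 CPM (0.70 and 0.73), Hspa1a at 1.11 and 0.64, Ccl5 at 0.64 and 1.51 and Egr1 at 0.64 and 0.63. Tnfrsf9 (-1.34 and -1.27), Hbegf (-1.26 and -1.14), Smox, a polyamine oxidase (-0.89 and -1.23), Ramp3 (-0.85 and -1.06) and Rln3, which encodes the peptide relaxin 3 (-1.28 and -0.84), were lower.

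Against Il5-only cells, heat shock genes were above the median gene in both libraries for 10 of 11, where 25.8% of all genes were, and immediate-early genes for 15 of 24 with 0 below. CGRP response genes were below it for 6 of 8, where 26.5% of all genes were, and 1 was called. Gata3 was at -0.30 and -0.19 and Crem at -0.41 and -0.44, neither past 1.5-fold.

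Il4, Irf4, Nr4a3 and Crem were among the genes higher in Il13-only cells than in cells with none of the 3 cytokines. Of 6613 genes 32 (0.484%) were called higher in Il13-only cells and 4 (0.0605%) lower, at median depths of 3990.5 and 5440 UMIs in both groups. Il4 was at 56.1 against 16.6 CPM in WT and 55.9 against 11.6 CPM in Pac1-/- (log2 1.81 and 2.34). Irf4, a factor induced by antigen receptor and alarmin signals, was at 1.40 and 2.79, Nr4a3 at 0.62 and 1.11 and Crem at 0.73 and 1.07.

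Secreted products and their enzymes were among the genes higher than in cytokine-negative cells. Tph1, the rate-limiting enzyme of serotonin synthesis outside the brain, was at 26.3 against 10.3 CPM in WT and 23.6 against 1.66 CPM in Pac1-/- (log2 1.40 and 3.91). Ccl1 was at 805 against 478 CPM and 551 against 244 CPM (0.81 and 1.25), Cxcl3 at 0.81 and 1.43, Ccl5 at 0.61 and 1.22, and Ptgs2, the inducible cyclooxygenase, at 0.94 and 0.74. The 4 genes called lower were Cpa3, a mast cell protease (-1.37 and -1.03), Hsd11b1 (-0.91 and -0.74), G2e3 (-1.08 and -0.74) and Izumo4 (-0.59 and -0.64). In Pac1-/- 1 cytokine-negative cell held 51 of the 101 Cpa3 UMIs, and without the highest cells Cpa3 was at -0.25 there and Hsd11b1 at -0.48 in WT, so neither call remained. Without the highest cell of each gene 28 genes were called higher and 5 lower, of which 25 and 2 were among those above, and too few UMIs of Tph1 and Pmaip1 remained for a call.

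By list, 6 of 6 chemokines were above the median gene in both libraries and 3 were called higher, beside 29.8% of all genes above it and 29.8% below it. Of 24 immediate-early genes 20 were above and 0 below, of 19 NFAT and NF-kB genes 17 and 1, of 14 cAMP target genes 12 and 0, of 7 CGRP response genes 7 and 0, and of 17 ribosome biogenesis genes 16 and 0, with at most 2 called in any of these. The lists share genes. Nr4a1, Nr4a2, Nr4a3, Fosl2 and Dusp1 are in both the immediate-early and cAMP lists, and Crem and Pde4d in both the cAMP and CGRP lists. Their counts are thus not separate results. Calca (0.52 and 0.83), Csf2 (0.44 and 0.61), Areg (0.47 and 0.91) and Gata3 (0.22 and 0.29) did not pass 1.5-fold in both. The values of Il13-only cells thus lay between those of cytokine-negative and double-positive cells for Gata3, Calca and Crem, and outside them for Il4.

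**Figure D4:**
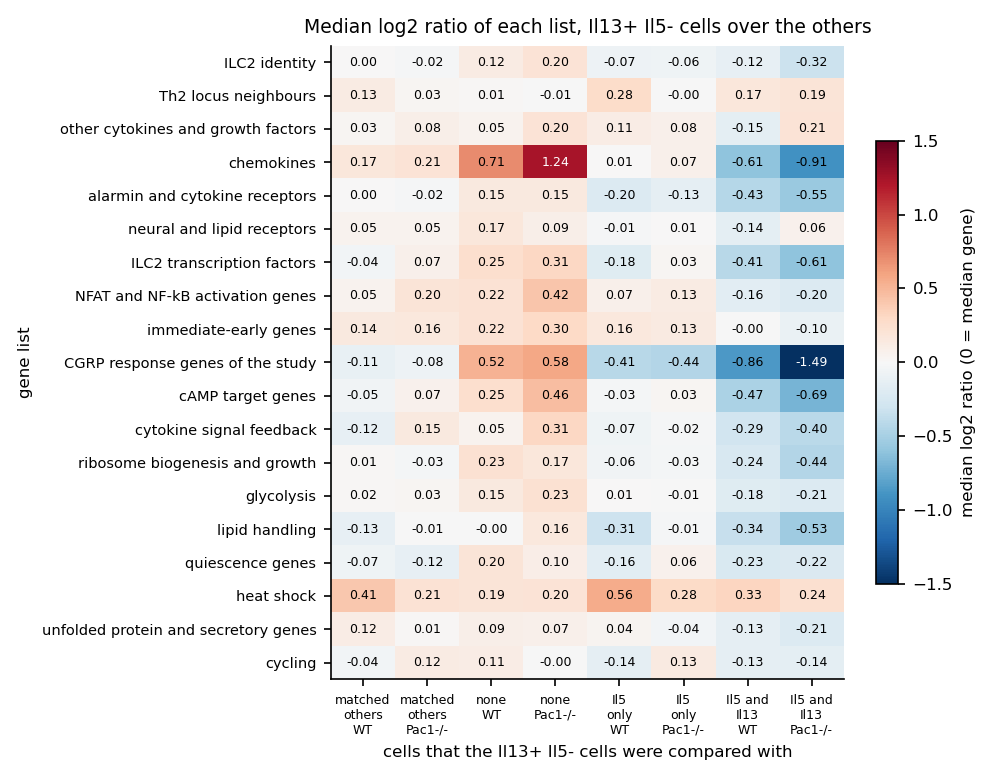
Median log2 ratio of each gene list (rows) for Il13-only cells over 4 sets of depth-matched cells in WT and Pac1-/- (columns), colour and number giving the same value; 0 is the median gene. The CGRP response row runs from 0.52 and 0.58 against cells with none of the cytokines to -0.86 and -1.49 against double-positive cells, and the heat shock row is above 0 in all 8 columns.

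The Il13-only cells were also split by Il13 UMIs, a count that the rule uses, and the values are given as a description. In cells with 1, 2 and 3 or more Il13 UMIs, Il4 was at 35.4, 18.2 and 114 CPM in WT and at 28.0, 84.3 and 99.1 CPM in Pac1-/-, so the middle group, with 75 and 54 cells, took no fixed place. Of 4005 genes compared between cells with 3 or more and 1 Il13 UMI, 17 (0.424%) were called higher and 6 (0.15%) lower. The groups were not matched in depth, with medians of 4300 against 3757 UMIs in WT and 6658 against 5069.5 in Pac1-/-.

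Il4 was among the genes called higher, at log2 1.71 in WT and 1.85 in Pac1-/-. Single cells held 23 of the 77 WT and 27 of the 67 Pac1-/- Il4 UMIs at 3 or more Il13 UMIs. Without the highest cell of each group Il4 was at 85.2 against 33.3 CPM in WT and 63.9 against 25.4 CPM in Pac1-/- (1.39 and 1.36). Ptgs2 was at 60.6 against 25.3 CPM in WT and 74.0 against 7.17 CPM in Pac1-/-, resting on 6 WT cells at 3 or more Il13 UMIs, and too few UMIs remained for a call without the highest cells. Crem was at 519 against 336 CPM and 305 against 152 CPM, and Cxcr4, a chemokine receptor, at 78.4 against 46.3 CPM and 121 against 68.9 CPM. Rasgrp1, an activator of Ras downstream of diacylglycerol, was among the 6 lower genes, at 53.2 against 89.3 CPM in WT.

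Between the genotypes, most genes called in Il13-only cells had the same direction in other cells matched in depth within each library. The Il13-only cells were chosen on raw counts and were not matched in depth between the libraries, with medians of 3990.5 UMIs in WT and 5440 in Pac1-/-. Of 6981 genes 544 (7.79%) were called higher in Pac1-/- and 721 (10.3%) lower (over 1.5-fold relative to the median gene, which was itself shifted by log2 0.11); as counted, 854 were called higher and 519 lower. Of the 1259 of these also tested in the matched other cells, 1197 (95.1%) had the same direction there, 673 were called the same way and 1 was called the opposite way. With a single library for each genotype, these counts compare 2 libraries. After thinning to 2000 UMIs before the rule, 262 genes were called higher and 359 lower in Il13-only cells. The matched other cells differed in makeup, with Il5 alone in 28.3% of WT and 19.7% of Pac1-/- cells and both Il5 and Il13 in 14.5% and 9.42%. The part of this difference in the ratios of matched other cells given below was not tested.

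Il4 did not pass 1.5-fold between the libraries in Il13-only cells, at log2 -0.11 (-0.48 to 0.25), but was at -0.99 (-1.78 to -0.26) after thinning to 2000 UMIs. Gpr65, Crem and Calcrl were lower in Pac1-/-. Gpr65 held 817 UMIs in WT and 354 in Pac1-/- (-1.42; -1.61 in matched other cells), Crem 873 and 500 (-1.02; -1.04) and Calcrl, which encodes a subunit of the CGRP receptor, 409 and 227 (-1.06; -1.04). Ramp1, which encodes another subunit, was at -0.05 (0.13 in matched other cells). Calca was at -0.48 and did not pass 1.5-fold, was at -0.74 in matched other cells, and after thinning was at -0.03 in Il13-only cells. Of 7 CGRP response genes 3 were called lower in Il13-only cells, where 10.3% of all genes were, and 5 in the matched other cells.

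Effector and surface genes were called in both directions. Klrg1 (-0.64) was lower in Pac1-/-, and Csf2 (0.66; 0.35 in matched other cells), Ly6a (1.21; 0.98), Hspa1a (0.76; 0.85) and Lgals3, the lectin galectin-3 (37 and 316 UMIs, 2.88; 3.07), were higher. Of these calls, that of Klrg1 was lost as counted (-0.53), those of Klrg1 (-0.50) and Csf2 (0.52) with at least 2 Il13 UMIs, and those of Klrg1 (-0.58), Csf2 (0.58) and Hspa1a (0.51) after thinning, all short of 1.5-fold. Some of the largest ratios belonged to mitochondrial or unnamed transcripts that shifted alike in the other cells, such as Gm43305 (-4.38; -4.30), Gm10076 (-3.20; -3.33) and mt-Atp8 (-2.34; -2.32). Zfp990 went from 0 to 159 UMIs, in 104 cells, at least log2 5.51 above a floor of 3 UMIs over the WT cells.

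Single cells set other ratios. Ccl3 and Ccl4, which held 0 UMIs in WT, held 174 and 138 in Pac1-/-, and 1 cell held 171 and 131 of them. Hba-a1 fell to log2 0.67 from 3.83 without its highest cell. Leaving out the highest cell for each gene called 536 higher and 729 lower.

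**Figure D5:**
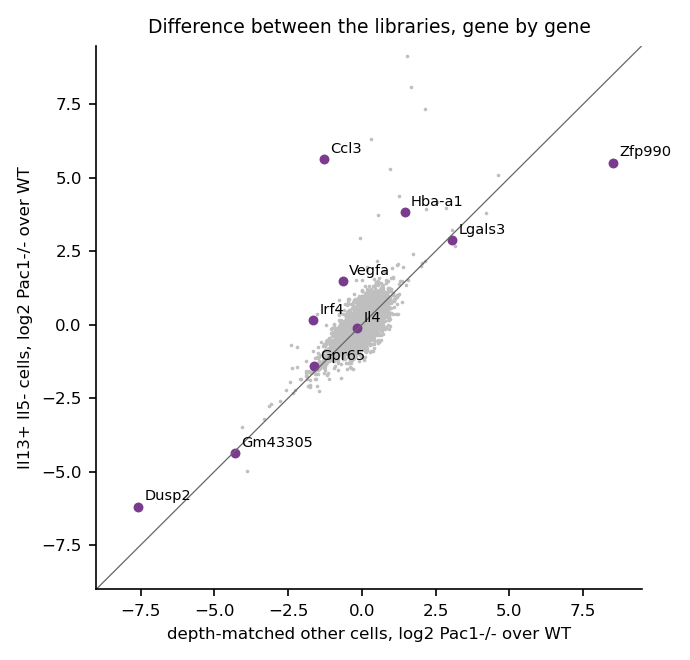
Log2 ratio of Pac1-/- over WT for each gene in depth-matched other cells (x axis) and in Il13-only cells (y axis), 0 being the median gene and the line marking equal ratios; named genes are in purple, and genes at 0 UMIs in a library are drawn at the bound set by 3 UMIs. Lgals3 and Gpr65 lie near the line, whereas Vegfa and Irf4 lie above it.

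The genotype ratio in Il13-only cells departed from that in matched other cells by over 1.5-fold for 375 of 8273 genes (4.53%). How many genes counting error alone would place there was not tested, and the matched cells differed in makeup between the libraries. The count is therefore not read as a genotype difference particular to Il13-only cells, and the genes below are a description. Irf4 held 46 UMIs in WT and 59 in Pac1-/- Il13-only cells (log2 0.14) but was at -1.64 in matched other cells, a difference of 1.75 (1.03 to 2.47). The interferon-induced gene Isg15 was at 1.51 and -0.21 (difference 1.69, 1.06 to 2.32), and Socs3, a feedback inhibitor of cytokine signalling, at 1.51 and 0.01. The difference for Socs3 was 1.47 (0.45 to 2.49), from 11 WT and 24 Pac1-/- cells.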

How the data were processed

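Single-cell transcriptomes of sorted lung ILC2s were analysed from 1 WT and 1 Pac1-/- library (10x Genomics 3′ chemistry, v3.1). The deposited values were raw UMI counts per gene and barcode, which the authors made with Cell Ranger on the mm10 genome (version 6.1.1 per the submitters' processing notes, 4.0.0 per the file headers); the annotation release is not given in the sources used here. No normalization had been applied. The members and gene lists were chosen with earlier results of these data known. Il13-only cells were matched without replacement, deepest first, to 3 other cells (or 1 per class) nearest in total UMIs. Summed counts were expressed as CPM with exact Poisson intervals, ratios with exact conditional binomial intervals, and shares with Clopper-Pearson intervals, at 95%. Genes named were up to 12 called in each direction, up to 4 per list (19 pathway and 9 cell type lists), up to 6 per class, up to 10 per genotype with at least 100 UMIs, and 18 fixed genes; Isg15 and, in single comparisons, Egr1, Icos, Rora, Ccl1 and Ptgs2 were named after their values were seen. A gene at 0 in a group was set against 3 UMIs. Alternatives covered depth, matching, filters, scaling, cells of other types and single cells. Some genes within this rule are not reported here. Scripts were tested on artificial data. Python 3.11.15, numpy 2.4.6, scipy 1.17.1, pandas 2.3.3 and matplotlib 3.10.9 were used.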

Additional observations from a re-analysis of the deposited data

Results flagged for a closer look

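Of 8273 genes tested, 6 passed 1.5-fold against depth-matched cells in opposite directions in the libraries, and 1 of these, Vegfa, which encodes a vascular growth factor, was among the genes chosen to be named. In WT, Il13-only cells held 25 UMIs and depth-matched cells 135, a log2 ratio of -0.85 (-1.53 to -0.22). In Pac1-/- they held 81 and 104, a ratio of 1.25 (0.81 to 1.68). The difference between the ratios was log2 2.10 (1.35 to 2.84), and 2.02 without the highest cells. The Vegfa UMIs came from 20 WT and 39 Pac1-/- Il13-only cells. Otud1 (-2.12 in WT and 0.88 in Pac1-/-) and Rgs3 (1.13 and -0.88) are given here after their values were seen, and the other three were A930005H10Rik, Aasdh and Pced1b. With 1 library per genotype these differences were not tested.

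Barcodes that failed the filter on genes and mitochondrial UMIs were used in no comparison. Of these, 144 of 2472 in WT (5.83%, 4.93 to 6.82) and 98 of 2408 in Pac1-/- (4.07%, 3.32 to 4.94) held Il13 without Il5 or Il2, by the same counts that define the Il13-only cells. The median depths of all barcodes that failed were 599 and 596 UMIs.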

How the results depend on the processing

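Of 18 genes called against matched cells, Il4 was called in 12 of 13 alternatives, Tagap in 11 and Hba-a1 in 10, and the others in 3 to 7. Il4 ranged over its alternatives from log2 1.39 to 1.84 in WT and 0.71 to 2.63 in Pac1-/-, and the heat shock median from 0.27 to 0.46 and 0.08 to 0.30. The causes of the changes below were not tested beyond what each alternative removes; fewer cells or genes remain in most. Alternatives with the highest cell, T cell marker cells or pairs within 10% were chosen after seeing the data. The alternative termed without cells of other types kept 444 of 470 WT and 321 of 375 Pac1-/- Il13-only cells. Since 233 and 230 Il13-only cells held 2 or more genes of the T cell list, that list was not applied in full there.

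The share of Il13-only cells was 2.39% in WT and 1.99% in Pac1-/- with at least 2 Il13 UMIs, and in WT 6.39% after thinning to 2000 UMIs and 6.39% without cells over 2 times the median depth. The count of genes lower than in matched cells was 2 with 1 matched cell, 0 with at least 200 UMIs, 6 with at least 2 Il13 UMIs, 1 after thinning, 5 with 1000 genes and 5% mitochondrial UMIs, 3 without cells of other types and 5 without T cell marker cells. The count higher was 3 with at least 200 UMIs, 5 without cells over 2 times the median and 3 without the highest cell. Genes lower than in cells with none of the cytokines numbered 7 in pairs within 10%. Genes higher in Pac1-/- numbered 854 as counted, 196 with at least 200 UMIs, 338 with at least 2 Il13 UMIs and 262 after thinning, and lower 333, 479 and 359 under the last 3.

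For genes past 1.5-fold in the library concerned, and for lists, reversed log2 values against matched cells were Mgp 2.03 and Inmt 0.0285 in Pac1-/- with 1 matched cell, and Hbegf 0.20 in WT against all cells standardised by depth. With at least 2 Il13 UMIs, Igkc was 0.49 and Mgp 0.0173 in WT. After thinning, Adi1 was -0.98, Mgp 1.61, Cystm1 0.52 and Gabarapl1 0.0901 in WT, and Ccdc32 0.14, Socs3 -0.23 and Pim2 -0.14 in Pac1-/-. Without cells of other types, Mgp was 0.58 in WT and 0.40 in Pac1-/-, and Hba-a1 -0.12 and Ier3 -0.26 in Pac1-/-; Ier3 was -0.0555 without the highest cell. Reversed values of Pac1-/- over WT, again of genes past 1.5-fold and of lists, were, after thinning, the immediate-early median 0.0789, Adi1 0.13, Ccl5 -0.11, Scgb1a1 -0.37 and Il6 -0.30; without cells of other types, Ier3 -0.32; without the highest cell, Hbb-bt -0.80, Ccl3 -0.21 and Ier3 -0.36; and without T cell marker cells, Ccl5 -0.0246. In all, 2128 of the values for genes against matched cells kept direction and size within counting error, 293 moved and 17 reversed, where a change of sign counts as a reversal for genes past 1.5-fold alone; genes short of 1.5-fold, such as Calca, Csf2, Gata3 and Hsph1, also changed sign in some alternatives.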

Other observations

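Rad50, which lies between Il13 and Il5, was at log2 -0.19 in WT and -0.13 in Pac1-/- Il13-only cells against matched cells, and Kif3a, a kinesin gene beside Il4, at 0.13 and 0.26. Neither passed 1.5-fold. Of the 7 tested genes listed as neighbours of the type 2 locus, 4 (Il4 itself, Kif3a, Irf1 and Ccni) were above the median gene in both libraries. Of all genes tested, 25.9% were above it in both libraries and 25.6% below it. Rad50 was the 1 gene below it, and Il4 the gene called higher. Among the listed genes, positions were looked up for Il4 and Rad50 alone, so the others, Ccni included, are not shown to lie near the locus. Nothing about neighbours of the locus is therefore read from the count.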
